A study of Mus musculus with 2 samples.

Results

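The Hox gene clusters of the mouse were described in whole-genome bisulfite data of the dentate gyrus, a part of the hippocampus rich in granule neurons. The mice were adult C57Black6 males, 8 to 10 weeks old, with no treatment or altered allele in the labels, and the micro-dissected tissue gave 1 group of 2 libraries. Each level is an average over all cell types of that tissue. The clusters were taken as 4 fixed windows of build mm9, chosen by position: HoxA (chromosome 6, 52100000 to 52220000), HoxB (chromosome 11, 96050000 to 96230000), HoxC (chromosome 15, 102750000 to 102870000) and HoxD (chromosome 2, 74490000 to 74610000). HoxB spans 180 kb and the others 120 kb each. Only sites of at most 100 reads in replicate 2 were used, which gave 4386 cytosines in the windows of 27435342 listed in that library. They comprised 1130 sites in HoxA, 1261 in HoxB, 835 in HoxC and 1160 in HoxD. Each window was set against 500 kb of sequence on each side, its flanks, whose position on the chromosome before or after the window is called left or right.

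Hox genes encode homeodomain transcription factors that set position along the head-to-tail axis of the embryo, and the order of the genes in a cluster follows the order of their expression domains. The hippocampus forms from the forebrain, which lies in front of those domains, and in tissues that do not use Hox genes the clusters are typically held silent by Polycomb proteins. Most cytosines followed by guanine (CpG) are methylated in mammalian DNA, except in CpG-rich regulatory DNA. Neurons also carry methylation outside CpG (CpH), here split into CHG and CHH, with H standing for any base but G. Bisulfite reads do not separate methylcytosine from hydroxymethylcytosine.

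RefSeq (GRCm38.p6) lists 11 protein-coding Hox genes in HoxA, 10 in HoxB, 9 in HoxC and 9 in HoxD. That annotation is of another build, so it was used for names and order alone. In HoxD the order runs from Hoxd13, Hoxd12, Hoxd11, Hoxd10, Hoxd9 and Hoxd8 to Hoxd3, Hoxd4 and Hoxd1, and Evx2, another homeobox gene, lies beyond Hoxd13. Of 26 RefSeq promoter sequences of Hox and Evx genes, 3 could be placed in their window by the methylation tables themselves, at the only start where each listed cytosine, 6 or more in number, fell on a cytosine of the same context. The 3 were those of Evx2 (11 listed cytosines), Hoxd4 (8) and Hoxd3 (6), and their spacing was the same to the base as in RefSeq. The same search with 7911 promoters of other genes of those chromosomes placed 50 of them (0.632%) in a Hox window.

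The 250 bases before the start site of these genes are shown because they carry the only promoter values that could be tied to a named gene. Capitals mark the CpG dinucleotides listed in the tables. The sequences are RefSeq's, 5′ to 3′ on the gene's strand, and the positions are those of the match in mm9.
Evx2 (chr2:74497614-74497863, minus strand): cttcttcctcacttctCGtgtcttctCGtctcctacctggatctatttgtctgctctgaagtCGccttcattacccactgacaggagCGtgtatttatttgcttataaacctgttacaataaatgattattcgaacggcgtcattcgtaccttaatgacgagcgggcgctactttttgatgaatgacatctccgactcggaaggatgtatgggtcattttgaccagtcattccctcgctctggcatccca
Hoxd3 (chr2:74549799-74550048, plus strand): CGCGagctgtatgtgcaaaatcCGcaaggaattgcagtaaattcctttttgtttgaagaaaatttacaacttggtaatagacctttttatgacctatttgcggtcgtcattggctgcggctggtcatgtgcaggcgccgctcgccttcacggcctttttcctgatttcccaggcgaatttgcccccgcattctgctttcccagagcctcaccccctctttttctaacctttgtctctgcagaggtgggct
Hoxd4 (chr2:74559784-74560033, plus strand): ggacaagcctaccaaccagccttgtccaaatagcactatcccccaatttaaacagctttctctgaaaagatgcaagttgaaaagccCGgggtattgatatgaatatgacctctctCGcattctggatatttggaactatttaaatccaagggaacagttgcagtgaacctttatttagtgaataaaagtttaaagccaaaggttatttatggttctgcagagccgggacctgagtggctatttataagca

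In the Evx2 promoter 1 of 102 reads was methylated over its 4 listed CpG sites, 0.980% (95% interval 0.0248% to 5.34%). Single sites there were at 0% or 4.35%. In the Hoxd3 promoter it was 1 of 67 reads over 3 CpG sites, 1.49% (0.0378% to 8.04%). The Hoxd4 promoter differed from these: its CpG site 164 bases before the start was methylated in 7 of 22 reads and that 135 bases before it in 3 of 26, together 20.8% (10.5% to 35.0%). None of the 157, 62 and 135 reads on listed CHG sites of the Evx2, Hoxd3 and Hoxd4 promoters was methylated. The upper 95% interval limits of these levels were 2.32%, 5.78% and 2.70%. Intervals of a level or a share are exact Clopper-Pearson intervals throughout, and those of a difference between regions are Newcombe's. They and the limits of a count of 0 cover counting error only, since reads were not tagged with molecular identifiers and may be PCR copies of each other. Of the CpG dinucleotides in the printed stretches, 4 of 14 were listed in Evx2, 3 of 12 in Hoxd3 and 2 of 3 in Hoxd4. Most CpG sites of the first pair were thus not seen at 20 reads or more in the 1 strand class that the data hold. Coverage of the other strand is not known.

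CpG methylation was low across all 4 clusters and high on both sides of each. Levels are read-weighted, that is, methylated reads as a percent of all reads of the sites in a region. HoxA was at 8.31% (7.63% to 9.04%) over 261 CpG sites, and its left and right flanks were at 77.3% and 75.1%. HoxC was at 12.2% (11.2% to 13.3%) over 169 sites, with flanks at 70.0% and 66.4%. In HoxD the level was 15.1% (14.2% to 16.0%) over 265 sites, between flanks at 80.3% and 81.8%. HoxB had the highest level of the 4, 20.5% (19.5% to 21.6%) over 264 sites, against 72.8% and 73.9% in its flanks. No interval of a cluster overlapped that of the next in this order, and the order was the same with 1 site per 300 bp, at 10.9%, 14.7%, 18.8% and 28.5%. At 30 reads or more it was another: HoxA was at 8.33% (13 sites), HoxB at 12.3% (5 sites), HoxC at 14.0% (13 sites) and HoxD at 24.9% (18 sites). Each cluster lay below both its flanks.

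Cluster and flanks differed by -68.0 percentage points in HoxA (95% interval -68.8 to -67.2), -65.9 in HoxD (-66.9 to -65.0), -56.1 in HoxC (-57.3 to -54.8) and -53.0 in HoxB (-54.2 to -51.9). The level of the flanks was 9.18, 5.37, 5.59 and 3.59 times that of HoxA, HoxD, HoxC and HoxB. Each difference passed a two-sided Fisher's exact test of the reads, with p-values too small for the computer's number format, adjusted by Benjamini-Hochberg over 12 comparisons of cluster and context. The test compares regions within 1 library, takes reads as independent and has no replicate check. With 1 site per 300 bp, about the length of a fragment, the differences were -67.6, -62.2, -55.8 and -46.2 points.

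**Figure D1:**
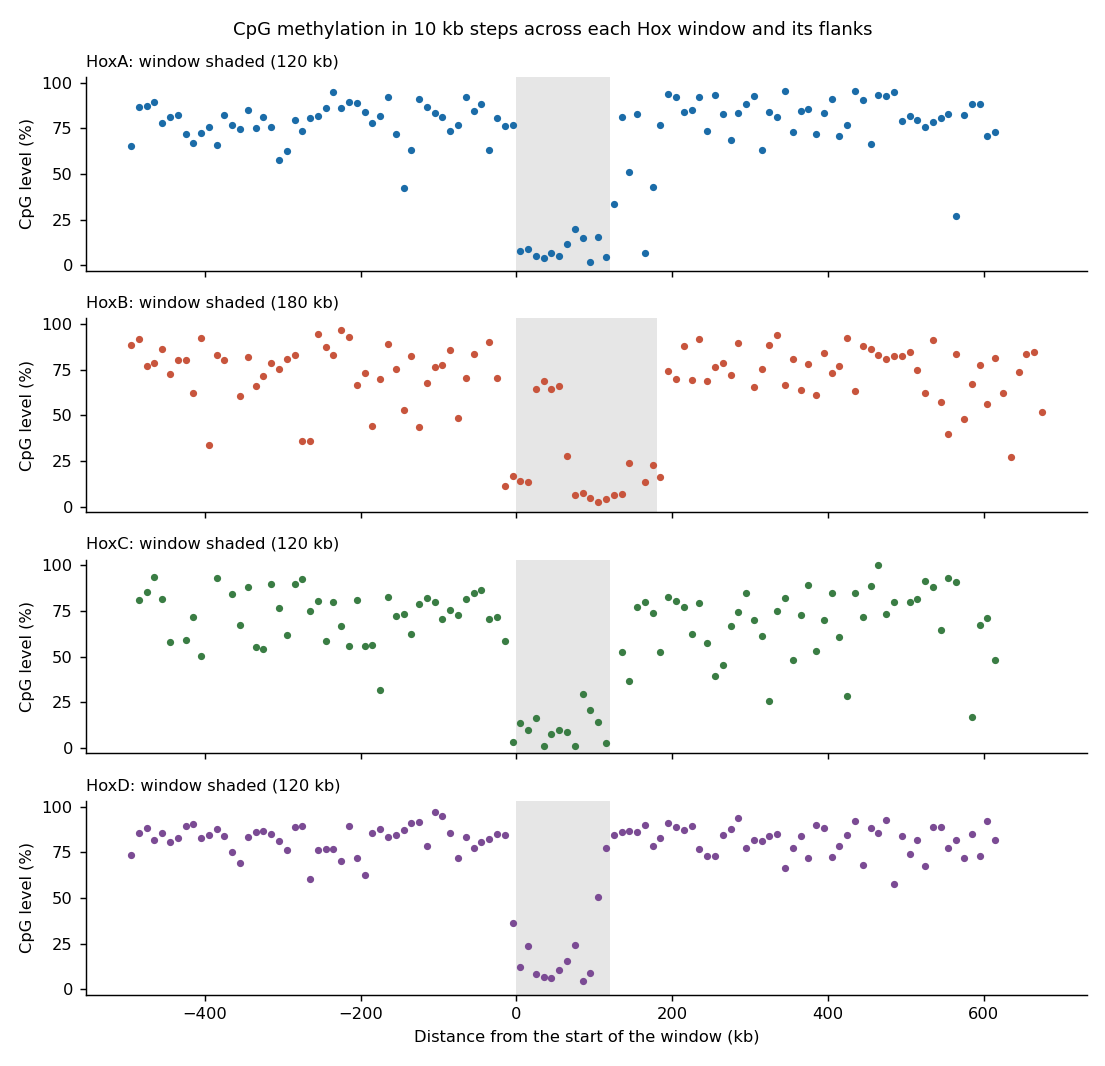
CpG level (percent of reads methylated) of 10 kb steps against distance from the start of each window in kb, 1 panel per cluster, with the window shaded. Each point is a step with at least 3 listed CpG sites. In the shaded windows 12, 10, 10 and 8 steps of HoxA, HoxB, HoxC and HoxD lie at or below 20%, against 1, 3, 2 and 0 in the flanks, and 4 steps of HoxB and 2 of HoxD lie above 50%.

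The 4 clusters were lower than every other autosomal window of the same length examined in this library. Among 19828 windows of 120 kb laid end to end, each with at least 20 CpG sites and none touching a Hox window, the median CpG level was 80.1% and the lowest was 24.8%. HoxA, HoxC and HoxD were below all of them. Among 13261 windows of 180 kb the lowest was 28.6%, above HoxB at 20.5%. The Hox windows were placed on their clusters whereas the others were laid without regard to features. The ranks are thus a description.

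**Figure D2:**
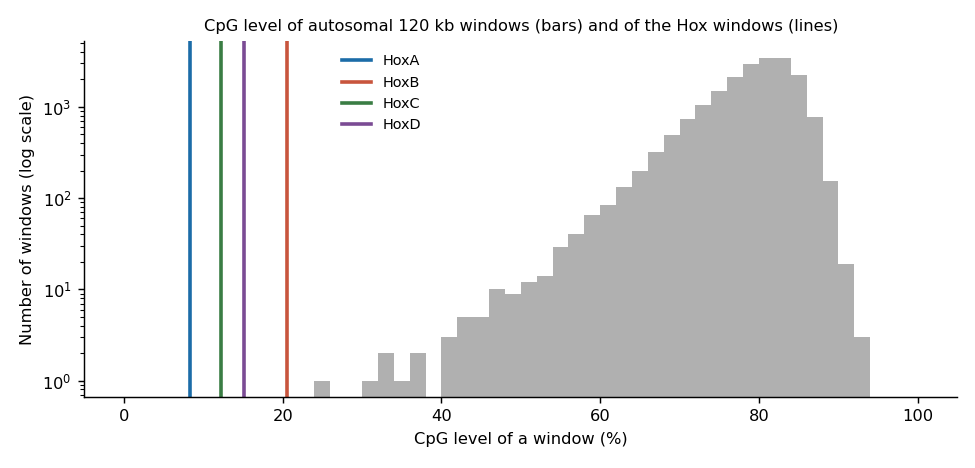
Number of autosomal 120 kb windows (log scale) by CpG level in percent, as bars, with the level of each Hox window as a vertical line (HoxB spans 180 kb). The lines, between 8.31% and 20.5%, stand to the left of the lowest bar, which holds the window at 24.8%.

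Single sites gave the same picture. A CpG site was called low at 20% or less, as 5.40% of 2870859 autosomal CpG sites were. In HoxA 232 of 261 sites were low (88.9%, 84.4% to 92.4%), and 132 had no methylated read. HoxC had 138 of 169 low sites (81.7%, 75.0% to 87.2%), HoxD 210 of 265 (79.2%, 73.9% to 84.0%) and HoxB 188 of 264 (71.2%, 65.3% to 76.6%). In the flanks of HoxA, HoxB, HoxC and HoxD the shares were 7.89%, 9.50%, 13.1% and 4.21%. The median site was at 0% in HoxA, 2.94% in HoxC, 4.76% in HoxD and 5% in HoxB, against 80% to 90% in the flanks. Sites at 80% or more were rare in HoxA (4 sites), HoxC (3) and HoxD (10) and more frequent in HoxB (23). Between these limits lay 25, 28, 45 and 53 sites of HoxA, HoxC, HoxD and HoxB.

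Low sites followed each other in long runs. An unmethylated stretch was defined as at least 4 neighbouring listed CpG sites, each at 20% or less, with at most 2 kb between neighbours. Of autosomal CpG sites 1.80% lay in such stretches, which numbered 8037 and had a median length of 502 bp. HoxA held 16 stretches with 209 of its 261 CpG sites, HoxB 15 with 168 of 264, HoxC 14 with 111 of 169 and HoxD 18 with 188 of 265. The stretches covered 42.4% of the HoxA window, 40.0% of HoxD, 26.3% of HoxB and 23.0% of HoxC. Their median length was 2609 bp in HoxA, 2511 bp in HoxD, 1708 bp in HoxC and 1605 bp in HoxB. No flank was covered to more than 1.07%, and the right flank of HoxD held no stretch. Stretches end at a site above 20% and also at a gap of more than 2 kb without listed CpG sites, so their number and length depend on which sites reached 20 reads.

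The longest stretch of all autosomes by this definition lay in HoxB. It ran from 96152204 to 96163887 of chromosome 11, 11684 bp with 23 CpG sites at 3.19% together and none above 19.0%. The next longest of HoxB ran from 96183611 to 96190383 (12 sites, 4.33%) and from 96061605 to 96068126 (20 sites, 1.97%). The longest of HoxA, from 52137542 to 52147362 of chromosome 6, was exceeded in length by that single HoxB stretch only. It spanned 9821 bp with 27 sites at 3.53%. HoxA also held stretches of 7402 bp from 52124853 (20 sites, 3.54%) and of 5413 bp from 52193771 (25 sites, 1.85%).

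In HoxC the longest stretch ran from 102822332 to 102830372 of chromosome 15, 8041 bp with 13 sites at 1.72%, and 6 autosomal stretches were longer. The next in HoxC were of 3249 bp from 102764021 (11 sites, 3.73%) and of 2964 bp from 102803472 (10 sites, 2.90%). HoxD had more stretches of middle length. Its longest was of 6047 bp, from 74545388 to 74551434 of chromosome 2 (11 sites, 3.89%), and contains the Hoxd3 promoter match. The Evx2 promoter match lay within a stretch of 2557 bp that starts at 74495312 (9 sites, 5.16%). The Hoxd4 match overlapped the start of one of 2986 bp from 74559899, whose 5 sites were at 14.9% together. The next longest of HoxD were of 5994 bp from 74570561 (25 sites, 2.14%) and of 5200 bp from 74515046 (22 sites, 1.66%).

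Between the Evx2 and Hoxd3 promoters, an interval of 51935 bases, 125 of 146 CpG sites were low and the level was 9.88%. The genes from Hoxd13 to Hoxd8 lie between these promoters in RefSeq's order. In the 9685 bases between the Hoxd3 and Hoxd4 promoters 10 of 13 sites were low, at 14.7%.

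**Figure D3:**
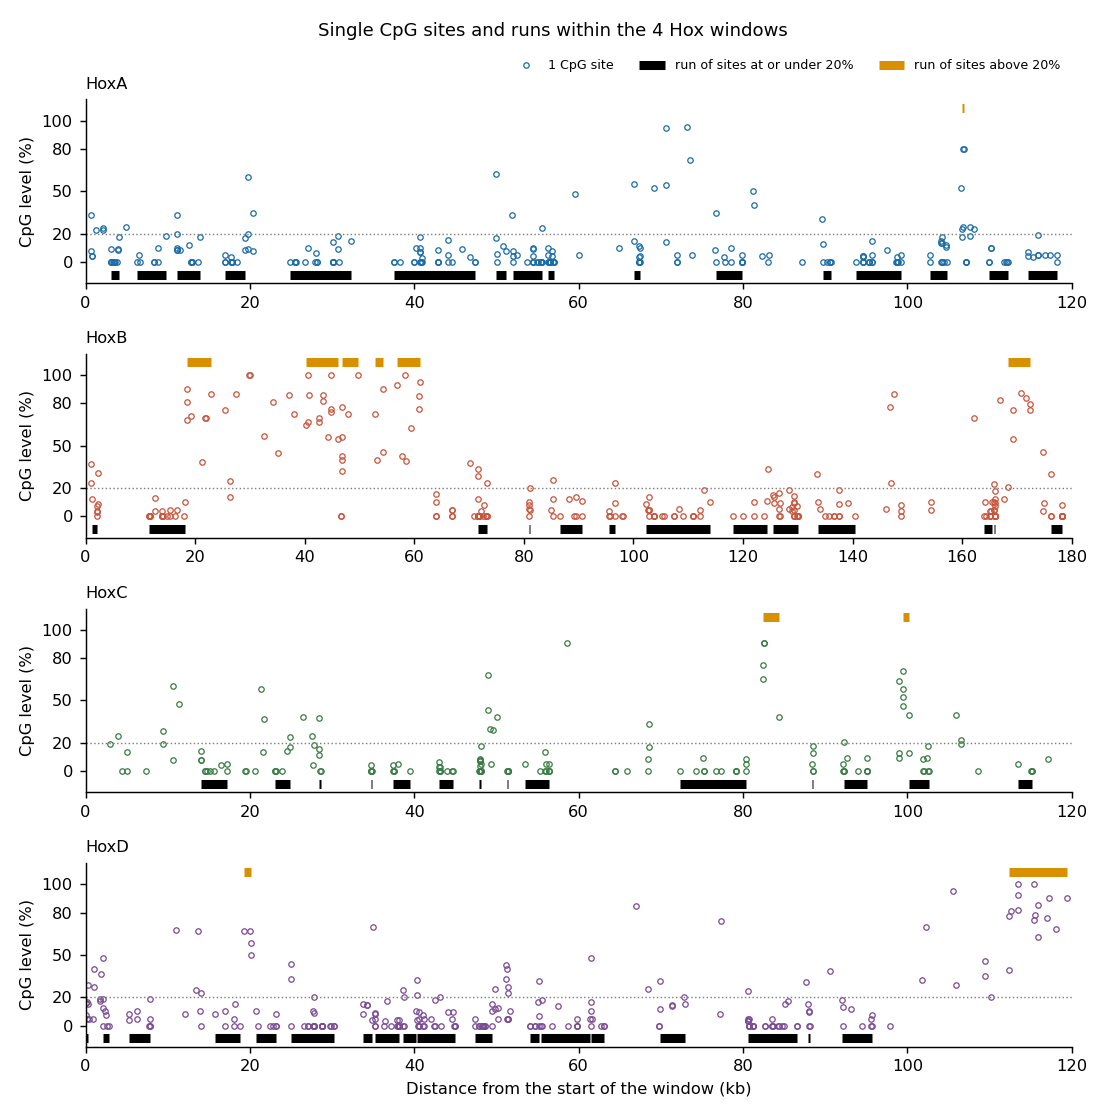
Level of each listed CpG site (percent, open circles) against distance from the start of the window in kb, 1 panel per cluster. Black bars below mark unmethylated stretches, orange bars above mark runs of at least 4 sites above 20%, and the dotted line is at 20%. Black bars recur along HoxA, HoxC and most of HoxD. HoxB has black bars too, and orange bars that start at 18.4 kb, from 40.2 to 56.9 kb, and at 168 kb.

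The methylated sites within the windows were not evenly spread. HoxB had a methylated block near its left end: the 4 steps of 10 kb from 96070001 to 96110000 were at 64.6%, 68.6%, 64.2% and 65.8%, while the step before them was at 13.7%. Runs of at least 4 sites above 20% there included one of 5881 bp from 96090240 to 96096120, with 13 CpG sites at 75.6%, and one of 4416 bp from 96068447 (8 sites, 70.9%). Another run of HoxB, 4069 bp from 96218298 (7 sites, 68.5%), lay near its right end. In RefSeq's order Hoxb13 is the first gene of HoxB and Hoxb9 the next, but no HoxB promoter could be placed, so the block is given by position alone. Of the 17 HoxB steps with at least 3 CpG sites, 10 were at 20% or less and the lowest, from 96150001, was at 2.51%.

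HoxD ended in methylated DNA. Its last 10 kb were at 77.2% and the 10 kb before that at 50.4%, and a run of 15 sites from 74602296 to 74609393 was at 80.4%. The only other such run of HoxD was of 825 bp from 74509312, with 4 sites at 60.6%. HoxA had a single run above 20%, of 181 bp from 52206694 with 4 sites at 50%, and all 12 of its steps were below 20%, from 1.61% in the step from 52190001 to 19.9% in that from 52170001. HoxC had runs of 1896 bp from 102832435 (5 sites, 72.4%) and of 796 bp from 102849411 (5 sites, 53.9%). Its steps ranged from 0.901% (from 102820001) to 29.4% (from 102830001), and none passed 50%.

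The change at the window edges was abrupt on some sides and gradual on others. To the left of HoxA the 10 kb outside the window were at 76.6% (71.2% to 81.3%) over 12 sites, next to 7.73% in the first 10 kb inside. To its right the level was 33.8% within 10 kb, 59.7% from 10 to 50 kb, 69.8% from 50 to 100 kb and 79.9% from 100 to 250 kb. HoxB was flanked by low DNA on both sides, 16.9% over 7 sites on the left and 16.3% over 10 sites on the right within 10 kb, followed by 55.0% and 72.0% from 10 to 50 kb. The 10 kb left of HoxC were at 3.39% over 8 sites and those from 10 to 50 kb at 71.5%. To the right of HoxC the level was 47.6% over 2 sites within 10 kb and 57.6% (54.1% to 61.0%) over 36 sites from 10 to 50 kb. HoxD had 36.0% over 25 sites in the 10 kb to the left, then 83.1%, while the 10 kb to its right were at 84.3%, next to 77.2% in the last 10 kb inside. Low or intermediate levels thus ran past the fixed windows at HoxA (right), HoxB and HoxC (both sides) and HoxD (left), and not at the left of HoxA or the right of HoxD. Of the 25 unmethylated stretches in the 8 flanks, 4 lay within 10 kb and 9 within 60 kb of a window.

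The clusters also had more CpG among their listed sites. CpG made up 26.6% of listed CpG and CHG sites in HoxA against 16.4% in its flanks, 26.8% against 16.9% in HoxD, 22.8% against 12.0% in HoxC and 22.5% against 17.4% in HoxB. Median depth was 22 reads per CpG site in each cluster and 22 or 23 in the flanks. Only CpG sites of at least 20 reads were listed, so these medians cannot show whether depth was alike. Listed CHG sites per kb numbered 6.00 in HoxA against 8.90 in its flanks, and 5.05 against 5.66 in HoxB. In HoxC they numbered 4.77 against 5.92 and in HoxD 6.02 against 8.91. Listed CpG sites per kb went the other way in each cluster. Whether depth differed was not tested. CpG sites of the clusters that lay outside the stretches had lower levels than those of the flanks outside stretches. They were at 27.9% against 78.9% in HoxA, 29.4% against 73.0% in HoxC, 39.8% against 81.5% in HoxD and 50.5% against 75.0% in HoxB. Since the stretches are defined by the same CpG levels, these values are a description with no test. How far the CpG content moves with the levels was not tested.

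CHG methylation was lower than in the flanks in HoxA, HoxB and HoxD, and a difference could not be shown in HoxC. HoxA was at 0.458% (0.362% to 0.572%) over 720 CHG sites against 1.05% in its flanks, a difference of -0.59 points (-0.69 to -0.47; Fisher's exact test, adjusted p = 7.9e-16). HoxD was at 0.484% (0.385% to 0.600%) over 722 sites against 1.01%, a difference of -0.53 points (-0.63 to -0.40; adjusted p = 4.7e-13 by the same exact test). HoxB was at 0.522% (0.429% to 0.630%) over 909 sites against 0.819%, a difference of -0.30 points (-0.40 to -0.18; exact test, adjusted p = 4.1e-06). HoxC was at 0.641% (0.512% to 0.792%) over 573 sites against 0.776%, a difference of -0.13 points (-0.27 to 0.022; exact test, adjusted p = 0.13). Of the 85 methylated reads behind the HoxC level, 9 came from 1 site, at 102808661, and the difference without that site was not tested. With 1 site per 300 bp the HoxA difference was -0.37 points and its adjusted p only 0.029 by the exact test. That of HoxB was -0.41 points (exact test, adjusted p = 0.0011). The HoxD difference was -0.20 points and did not pass (exact test, adjusted p = 0.23), and neither did that of HoxC, -0.19 points. At 30 reads or more, where 34 to 50 CHG sites were left per cluster, none passed, with differences of -0.44 points in HoxA, -0.47 in HoxD, -0.23 in HoxB and -0.25 in HoxC. Against 100 kb flanks HoxC differed too (-0.32 points, exact test, adjusted p = 0.0013).

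The mitochondrial CpH level of the library, 0.368% (0.365% to 0.370%), gives the level of failed conversion if mitochondrial DNA is taken as unmethylated. HoxA was the only cluster whose CHG interval reached it. In the flanks of HoxB, HoxC and HoxD the CHG level was lower on the left (0.706%, 0.668% and 0.895%) than on the right (0.908%, 0.891% and 1.13%), and the HoxC level lay inside the interval of its own left flank (0.610% to 0.730%). Among 19852 autosomal windows of 120 kb with at least 100 CHG sites, 6.28% were at or below HoxA, 8.48% at or below HoxD and 31.1% at or below HoxC. For HoxB it was 10.4% of 13273 windows of 180 kb. All autosomal CHG sites together were at 0.784%. The flanks of HoxA (1.05%), HoxD (1.01%) and HoxB (0.819%) were above that level and those of HoxC (0.776%) below it. By CpG the clusters thus lay below all the other windows, and by CHG they lay among them.

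CHH sites were few and their intervals wide. HoxA was at 0.661% (0.450% to 0.937%) over 149 sites against 1.29% in its flanks, a difference of -0.63 points (-0.84 to -0.35; Fisher's exact test, adjusted p = 8.0e-05). Outside the unmethylated stretches the HoxA difference was -0.54 points and did not pass (exact test, adjusted p = 0.069). HoxB was at 0.764% over 88 sites against 1.06%, and the interval of the difference ran from -0.59 to 0.12 points. With 1 site per 300 bp the HoxB difference was -0.83 points, which passed (exact test, adjusted p = 0.045). HoxC was at 0.858% over 93 sites against 0.926% (-0.36 to 0.34 points), and HoxD at 0.850% over 173 sites against 1.01% (-0.38 to 0.12 points). A difference was not detectable at this depth in HoxB, HoxC or HoxD as fitted. All autosomal CHH sites together were at 0.889%, below the flanks of each cluster. Among windows of the same length with at least 20 CHH sites, 27.4% were at or below HoxA and 38.5% at or below HoxB. For HoxC and HoxD it was 52.6% and 51.8%.

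**Figure D4:**
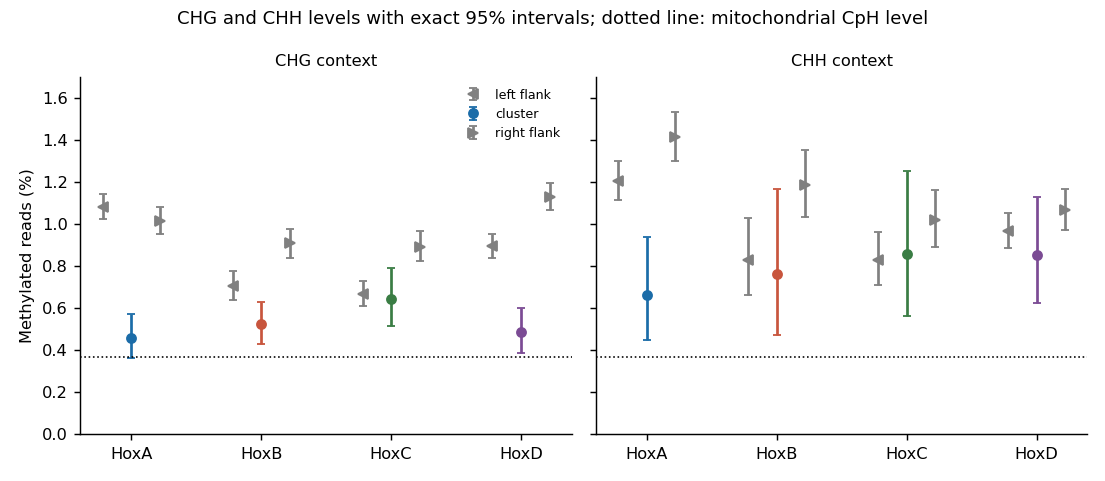
CHG (left) and CHH (right) levels in percent of reads, for each Hox window (coloured circle) and its left and right flank (grey triangles), with exact 95% intervals. The dotted line is the mitochondrial CpH level, 0.368%. The CHG circles lie below both of their flanks, that of HoxC (0.641%) within the interval of its left flank, and the CHH circles have the widest intervals.

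In each cluster the CHG level was lower inside the unmethylated stretches than outside them, and no test of this was run. Inside the unmethylated stretches the CHG level was 0.353% in HoxA, 0.342% in HoxB, 0.373% in HoxC and 0.333% in HoxD, and 0.347% (0.283% to 0.422%) over the 1233 CHG sites of all 4. The mitochondrial level lies in each of these intervals. The 73338 CHG sites in autosomal stretches were at 0.416% (0.406% to 0.425%), within the interval of the Hox stretches. Outside the stretches the CHG level over all 4 clusters was 0.647% (0.570% to 0.731%), above the interval inside. In each single cluster the intervals inside and outside overlapped. The clusters outside stretches were at 0.600% (HoxA), 0.603% (HoxB), 0.769% (HoxC) and 0.632% (HoxD). The flanks outside stretches were at 1.06%, 0.821%, 0.782% and 1.01%. In HoxA, HoxB and HoxD the difference between these was past the threshold (Fisher's exact test, adjusted p = 0.00017, 0.0073 and 0.00071), and in HoxC it was -0.013 points (adjusted p = 0.95). CHH inside the stretches of all 4 clusters was at 0.567% (0.391% to 0.796%) over 181 sites, and outside them at 0.904% (0.729% to 1.11%) over 322. By cluster the CHH levels inside and outside were 0.597% and 0.760% in HoxA, 0.763% and 0.764% in HoxB, 0.888% and 0.847% in HoxC, and 0.215% and 1.06% in HoxD. The intervals inside were 0.281% to 1.65% over 25 sites in HoxB and 0.358% to 1.82% over 23 sites in HoxC. They are too wide to tell whether these clusters share the lower level inside, and no test of it was run. The HoxD level outside the stretches stood beside 1.01% in its flanks (exact test, adjusted p = 0.83).

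**Figure D5:**
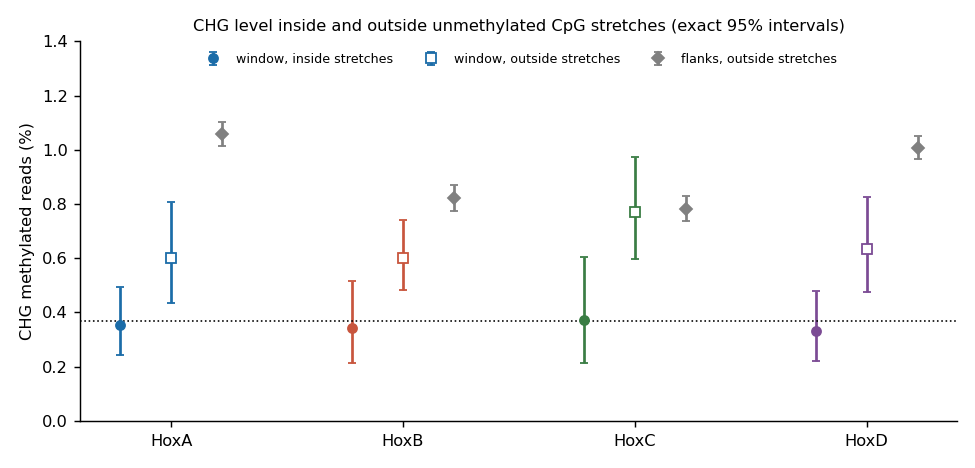
CHG level in percent of reads for each cluster inside its unmethylated CpG stretches (filled circles), in the rest of the window (open squares) and in the flanks outside stretches (grey diamonds), with exact 95% intervals. The circles lie between 0.333% and 0.373%, around the dotted line of the mitochondrial CpH level, and the squares between 0.600% and 0.769%.

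Few single CpH sites were called methylated. A call is a one-sided exact binomial test of a site against the mitochondrial level, adjusted at 0.01 over all nuclear sites of the context. By this rule 1.46% of autosomal CHG sites and 2.75% of CHH sites were called. In the clusters 26 of 2924 CHG sites were called (0.889%, 0.582% to 1.30%), against 573 of 29390 in the flanks (1.95%). HoxA had 5 called CHG sites of 720 (0.694%), HoxB 7 of 909 (0.770%), HoxC 8 of 573 (1.396%) and HoxD 6 of 722 (0.831%). Their flanks were at 2.22%, 1.45%, 1.54% and 2.27%. The lower pooled share thus did not hold for HoxC, which was near its flanks and all autosomes (interval 0.605% to 2.73%). The interval of each cluster contained the autosomal CHG share, and no test of these shares was run. Of CHH sites 12 of 503 were called (2.39%, 1.24% to 4.13%), against 286 of 7913 in the flanks (3.61%), so the CHH share was near that of all autosomes. Of the 26 called CHG sites 3 lay in unmethylated stretches, as did 1230 of the 2898 that were not called. The nearest listed CpG site was above 20% for 18 of the 26 and for 913 of the 2898. For CHH it was above 20% for 3 of the 12 called sites and for 158 of the 491 that were not called, and 3 of the 12 lay in stretches.

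The strongest CHG site was at 102808661 in HoxC, methylated in 9 of 21 reads (42.9%, 21.8% to 66.0%; exact binomial test, adjusted p = 8.5e-14). It lay 67 bp from a CpG site at 90.6%. In HoxB the highest was at 96076436, in 6 of 26 reads (23.1%), 17 bp from a CpG site at 13.6%. Next came 96087043 with 4 of 20, 44 bp from one at 85.7%, and 96079981 with 4 of 22, 7 bp from one at 100%. In HoxA the site 52149664 had 5 of 24 reads (20.8%), 296 bp from a CpG site at 61.9%. In HoxD the site 74605334 had 4 of 21 (19.0%), 11 bp from a CpG site at 100%. The remaining highest CHG sites of HoxA, HoxC and HoxD had 3 or 4 methylated reads. Their nearest CpG sites were at 5% and 52.4% in HoxA, 13.6% and 8% in HoxC, and 47.8% and 66.7% in HoxD. Called CHH sites were led by 96196897 in HoxB (6 of 30 reads, 20%), 52113951 in HoxA (6 of 32, 18.8%) and 74508963 in HoxD (6 of 34, 17.6%). In HoxC 1 CHH site was called, 102808596 (3 of 30 reads), 2 bp from the same CpG site as the strongest CHG site. None of the 3 called CHH sites of HoxA and none of the 5 of HoxD had a nearest CpG site above 20%, whereas 2 of the 3 of HoxB did. No site was called on fewer than 3 methylated reads, so methylation well below 10% at 1 site was mostly not detectable.

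Replicate 1 listed 6 sites in the windows, all without a methylated read. They were 1 CpG site of HoxD (74496249, 0 of 20 reads, against 2 of 20 in replicate 2), 1 CHG site beside it, and 2 CHG and 2 CHH sites of HoxB. The values above thus rest on 1 library.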

How the data were processed

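Genomic DNA of micro-dissected dentate gyrus was mixed with 0.5% unmethylated lambda DNA, sheared to about 300 bp and bisulfite treated, per the labels' protocols. Reads were handled with Bismark 0.7.5 on mm9, per the submitters' processing notes. How reads were trimmed, and whether duplicates were removed, is not given in the sources used here. As deposited, the 6 tables had no header and held 1 library and context each, from 1 strand class, with read counts per cytosine (methylated, unmethylated, and both together). The deposited percent of methylated reads was recomputed from those counts. The lowest total in replicate 2 was 20 reads for CpG and CHG and 30 for CHH, and median depths were 23, 23 and 32 reads.

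Levels, exact intervals, Fisher's exact tests (12, Benjamini-Hochberg adjusted) and exact binomial calls were computed with scipy 1.17.1 in Python 3.11.15. The Fisher's exact test, the binomial calls and the calling of stretches were tried on simulated data in which reads were independent. The levels and intervals were not. Calls and unmethylated stretches were made on the whole table. Each p-value measures reads within 1 library. The windows and the choice of tests were made with earlier results of these data known, and the promoter search was added after the data were seen.

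Named regions were, per cluster, the 3 longest stretches, the 3 longest runs of at least 4 CpG sites above 20%, and the 3 highest called CHG and CHH sites. Alternatives were depth limits, site means, 1 site per 300 bp, flanks of 100 kb, sites outside stretches, other stretch and call limits, and replicate 1 alone. No mm9 sequence or annotation was used here.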

Additional observations from a re-analysis of the deposited data

How the results depend on the processing

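CpG differences between cluster and flanks kept their direction and passed the exact test in each counted alternative that has a test, in all 4 clusters. Sites outside stretches are split by the tested level, so that setting is not counted. Nor is replicate 1, which had CpG sites in the HoxD window alone, 1 site against 3 in the flanks. At 30 reads HoxB had 12.3% and HoxD 24.9%, which changed the order of the clusters. CHG and CHH differences were less stable. With at least 30 reads the CHG difference was -0.44 points in HoxA, -0.23 in HoxB and -0.47 in HoxD and no longer passed, at 34 to 50 sites per cluster. With 1 site per 300 bp that of HoxD was -0.20 points and did not pass, while the CHH difference of HoxB, -0.83 points, did. With flanks of 100 kb the CHG difference of HoxC passed (-0.32 points). Outside the stretches the CHH difference was -0.54 points in HoxA, which did not pass, and reversed to 0.054 points in HoxD. The cause was not tested. The number of stretches was 8, 7 and 8 in HoxB, HoxC and HoxD with at least 8 sites, 26 in HoxA with neighbours within 1 kb, and 0 (HoxA, HoxB, HoxD) or 2 (HoxC) at 30 reads, where 5 to 18 CpG sites were left per cluster. Low CpG sites at 10% or less made up 78.2% (HoxA), 62.9% (HoxB), 70.4% (HoxC) and 64.9% (HoxD), and at 30 reads 60% in HoxB and 55.6% in HoxD. Called CHG sites made up 0.349% in HoxC and 0.139% in HoxD with a background of 1%. At 30 reads they made up 2.33%, 0%, 0% and 2% of only 43, 34, 35 and 50 sites in HoxA to HoxD. Called CHH sites made up 0% in HoxC and 0.578% in HoxD with a background of 1%. The low and called shares of all autosomal sites were not computed under these settings, so these values cannot be read as high or low. Without replicate 2, the HoxB and HoxD CHG differences were 0 points, HoxD had 0 stretches and 100% low CpG sites (1 site), and the called shares were 0% for CHG in HoxB and HoxD and for CHH in HoxB. No paired analysis was possible because the labels give 1 group. Depth limits CpH: at the listed depths a site needs 3 methylated reads to be called, and CHH differences of the size seen in HoxC and HoxD lie within counting error.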

Other observations

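Outside the windows, 25 unmethylated CpG stretches lay in the flanks. The stretch with most sites was in the right flank of HoxA, from 52663800 to 52664702 of chromosome 6, with 23 CpG sites at 0.397%. The right flank of HoxC held one from 103069319 to 103070821 of chromosome 15, with 14 sites at 0.935%. Closer to HoxA, 3 stretches between 52264545 and 52272886 had levels of 1.96%, 0% and 0% over 5, 4 and 4 sites. The longest flank stretch was of 1810 bp, in the left flank of HoxC (102573066 to 102574875, 4 sites, 5.71%). It was shorter than the median stretch of HoxA and HoxD and longer than that of HoxC (1708 bp) and HoxB (1605 bp).

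CHG levels in the 10 kb beside the windows varied from side to side. Right of HoxC the CHG level was 2.44% (exact 95% interval 1.58% to 3.58%) over 45 sites, where CpG was at 47.6% over 2 sites. Right of HoxA it was 1.87% (1.29% to 2.62%) over 76 sites, where CpG was at 33.8%. There, 26 of 358 CHG reads were methylated in the run from 52222484 to 52223264, whose CpG level was 62.4%. In the unmethylated stretch from 52225750 to 52227009 none of 149 was. In the 10 kb left of HoxC, where CpG was at 3.39%, none of the reads on 41 CHG sites was methylated, with an upper interval limit of 0.380%. These sides were picked after their values were seen, and no test was run.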
